A study of Mus musculus with 6 samples.

Results

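Glycolysis genes and genes that are induced by low oxygen were followed in mouse fibroblasts of 2 genotypes: Delta9 lines, which carry an altered allele of the lamin A/C gene Lmna, and wild-type (WT) lines. Of 32 genes listed as glycolytic enzymes or targets and regulators of the hypoxia-inducible factors (HIF), 30 had a probe set annotated to exactly 1 gene symbol, out of 18193 such genes on the arrays. Gpi1 and Eno1 had no such probe set and were not analysed here. Each gene was read from its probe set with the highest mean over the 6 arrays. That choice of probe set used no difference between the genotypes, but the genes were listed with earlier results of these data known.

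The 6 samples were primary fibroblasts of strain C57bl6X129S3/J, 3 Delta9 and 3 WT, each on its own Affymetrix array. According to the series' design text, the lines came from siblings, were at passage 3 and had spent 72 hours without serum before RNA was taken, in both groups alike. The labels call the cells adult, the design text calls them post-natal, and neither gives the copy number of the allele, the oxygen level of the cultures or the number of animals, so p-values measure only the spread between these samples. Values are log2 probe set summaries as the authors deposited them; 3 arrays per group limit the precision, and the table holds no detection calls. Lmna had lower values in Delta9, 7.07, 6.95 and 6.11 against 8.35, 8.89 and 8.78 in WT, though its adjusted p of 0.0899 missed the threshold of 0.05. Where that probe set lies relative to the altered part of Lmna is not known here, so it does not check the labels.

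All 12 fibroblast markers lay at the 83.1st percentile of expression level or above, among them Col1a1 and Pdgfrb. Of 18 macrophage markers, 17 were above the median gene too, and every one of the 18 read higher in Delta9 (median difference 1.08, 0 passing the adjusted threshold). Their mean level was 9.70 to 10.31 on the Delta9 arrays and 7.64 to 9.82 on the WT arrays. The epithelial list was mostly dim, with 1 of 8 genes above the median gene, and 2 of 7 endothelial and 5 of 8 skeletal muscle markers were above it. Arrays also differed in their poly-A spike-in transcripts, which are added to RNA before labelling: Delta9 replicate 3 read 5.20 and WT replicate 1 read 4.85 log2, against 5.64 to 6.10 on the other 4 arrays. That gap of 0.44 was little wider than the next one of 0.35. Because the samples were bulk RNA, fewer cells of a type and less RNA per cell cannot be told apart.

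Glycolysis splits glucose into pyruvate and yields ATP without oxygen; lactate dehydrogenase then turns pyruvate into lactate. HIF is a pair of an oxygen-regulated alpha subunit (Hif1a or Epas1) and the stable partner Arnt. When oxygen is present, prolyl hydroxylases of the Egln family mark the alpha subunit for destruction, so its activity is set mainly at the protein level, which arrays do not read. HIF binds a short DNA element with the core ACGTG or GCGTG and raises most glycolytic enzymes, glucose uptake, lactate export and factors such as Vegfa. Fibroblasts also adjust glycolysis to growth signals, which serum withdrawal reduces.

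The promoter windows below belong to genes on which the results turn. Pfkfb3 was the member of lowest p, Hk2 had the widest positive difference and Adm the most negative one. Pgam1 came closest to the threshold once the spike-in split was modelled. Pgk1 and Ldha are enzymes of the ATP-yielding phase and of lactate production. Only the ACGTG core is marked in the windows, and that of Adm lacks it. Each window is 300 bases on the gene's own strand, 5′ to 3′, from 250 before to 50 after an annotated start in RefSeq, build GRCm38.p6. Capitals mark ACGTG on either strand, which reads ACGTG or CACGT; where both overlap they spell CACGTG, the E-box that MYC and USF proteins also bind. For Pfkfb3 and Ldha, which have 2 annotated starts, the window with more matches is shown.
Pfkfb3, chr2:11502041-11502340, minus strand: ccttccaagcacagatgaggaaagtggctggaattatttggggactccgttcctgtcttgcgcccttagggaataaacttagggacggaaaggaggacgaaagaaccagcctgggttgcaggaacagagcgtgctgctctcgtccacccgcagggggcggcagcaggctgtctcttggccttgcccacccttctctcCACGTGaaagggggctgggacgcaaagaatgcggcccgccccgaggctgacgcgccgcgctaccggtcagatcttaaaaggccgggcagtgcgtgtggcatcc
Hk2, chr6:82774405-82774704, minus strand: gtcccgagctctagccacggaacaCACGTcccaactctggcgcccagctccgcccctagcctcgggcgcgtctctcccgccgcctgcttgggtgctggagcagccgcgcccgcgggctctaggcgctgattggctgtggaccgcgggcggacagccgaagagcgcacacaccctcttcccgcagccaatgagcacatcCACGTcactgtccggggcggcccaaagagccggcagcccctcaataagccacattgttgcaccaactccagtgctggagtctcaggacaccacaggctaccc
Pgam1, chr19:41911621-41911920, plus strand: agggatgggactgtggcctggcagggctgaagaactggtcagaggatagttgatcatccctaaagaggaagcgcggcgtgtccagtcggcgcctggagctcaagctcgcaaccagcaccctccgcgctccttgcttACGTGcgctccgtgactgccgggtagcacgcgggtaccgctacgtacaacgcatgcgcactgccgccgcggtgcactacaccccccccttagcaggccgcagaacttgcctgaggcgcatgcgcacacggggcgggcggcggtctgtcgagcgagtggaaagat
Pgk1, chrX:106186850-106187149, plus strand: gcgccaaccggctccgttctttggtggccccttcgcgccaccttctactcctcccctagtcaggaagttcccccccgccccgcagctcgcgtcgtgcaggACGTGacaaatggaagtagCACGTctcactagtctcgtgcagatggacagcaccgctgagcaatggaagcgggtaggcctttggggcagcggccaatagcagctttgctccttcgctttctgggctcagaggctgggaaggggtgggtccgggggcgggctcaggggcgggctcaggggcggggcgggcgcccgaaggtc
Ldha, chr7:46845554-46845853, plus strand: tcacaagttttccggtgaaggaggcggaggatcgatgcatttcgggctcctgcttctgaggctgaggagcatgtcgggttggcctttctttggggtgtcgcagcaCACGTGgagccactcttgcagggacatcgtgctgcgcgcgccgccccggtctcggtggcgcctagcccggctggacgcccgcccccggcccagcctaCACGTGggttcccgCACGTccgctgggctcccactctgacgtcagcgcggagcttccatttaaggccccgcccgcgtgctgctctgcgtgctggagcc
Adm, chr7:110627407-110627706, plus strand: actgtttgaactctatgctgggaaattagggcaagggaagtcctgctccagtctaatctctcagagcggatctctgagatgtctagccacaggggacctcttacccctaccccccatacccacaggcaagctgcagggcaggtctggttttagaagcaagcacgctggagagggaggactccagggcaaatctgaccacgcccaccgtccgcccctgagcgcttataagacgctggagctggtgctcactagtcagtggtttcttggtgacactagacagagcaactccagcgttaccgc

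Ldha held 5 matches in this window, Pfkfb3, Hk2 and Pgk1 held 2 each, Pgam1 held 1 and Adm held 0. In Ldha, 4 of the 5 overlapped as 2 E-boxes, and the 2 matches of Pfkfb3 overlapped as 1. Adm held 2 matches to the other core, GCGTG, in its window. Of the 30 genes, 28 matched the promoter table, with 40 windows in all; Epas1 and Ndrg1 had no window there. ACGTG stood in at least 1 window of 21 of the 28 (75.0%), against 26.1% of the 14452 genes on the arrays with a window, and 19.6% of all 32851 windows held it. GCGTG stood in 18 of the 28 (64.3%), against 47.8% of the genes on the arrays and 32.4% of all windows; CACGTG, whose matches are counted within those of ACGTG, stood in 5 (17.9%), against 10.2% and 7.15%. How far such elements had a part in the listing of genes as HIF targets, and so in the share, was not tested. The 21 members with ACGTG had a median Delta9 minus WT difference of 0.15 and the 7 without it one of 0.30, with 13 and 6 higher values respectively. A match is not a bound site, and no match says only that these letters are absent from the window.

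No member passed the adjusted threshold between the genotypes. By limma's test with Benjamini-Hochberg adjustment over all 18193 genes, 0 of 30 passed, where 11 genes (0.0605%) passed over the whole table, 1 higher (0.0055%) and 10 lower (0.055%) in Delta9; the members' adjusted p ran from 0.322 to 1.00. At an unadjusted p under 0.05, 1 member was higher in Delta9 (Pfkfb3) and 2 were lower (Hif1a and Ndrg1), against 4.54% of all genes higher and 6.06% lower, 10.6% together. The groups did not overlap for 3 members higher in Delta9 (Aldoc, Pfkfb3 and Epas1) and 2 lower (Hif1a and Ndrg1), which is 16.7% of the members, and 7.27% and 9.99% of all genes, 17.3% together. The members' shares at that p and without overlap were thus near those of all genes. The median difference over the members was 0.17, with 20 higher and 10 lower values, against a median of -0.01 over all genes. It was -0.0059 without WT replicate 1, 0.052 without Delta9 replicate 1, 0.076 without Delta9 replicate 2 and 0.33 without Delta9 replicate 3. For 23 of the 30, the 95% confidence interval of the difference lay within 1 log2 of 0 on both sides; for the other members, among them Hk2, Adm and Ddit4, a change of that size lay inside the interval.

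**Figure D1:**
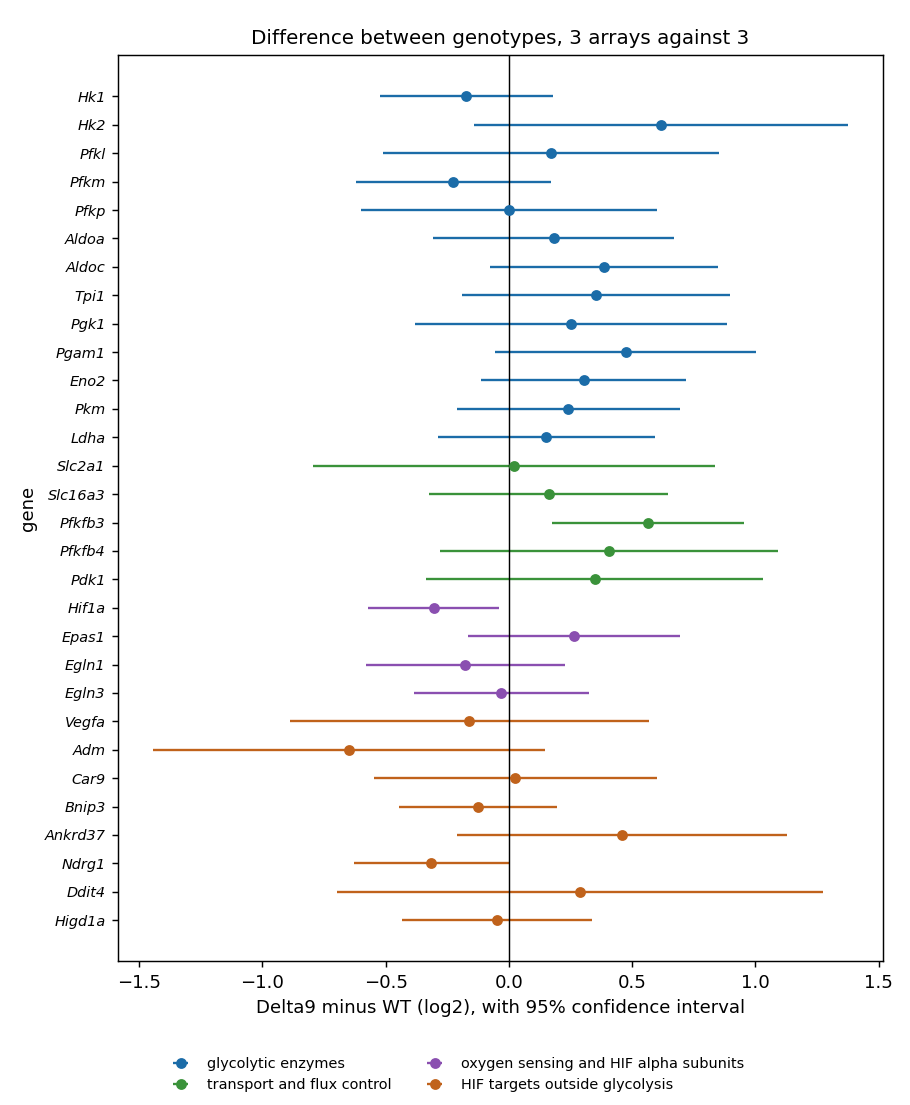
Difference in log2 value, Delta9 minus WT, for each of the 30 member genes (points, limma, 3 arrays against 3) with its 95% confidence interval (lines), coloured by role. The intervals of Pfkfb3, Hif1a and Ndrg1 leave out 0, and 11 of 13 glycolytic enzymes lie to the right of it.

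Among the glycolytic enzymes, 11 of 13 measured genes had higher values in Delta9 and 2 had lower ones, with a median difference of 0.24; none passed the threshold. Leaving out 1 array moved that median to between 0.070 (without WT replicate 1) and 0.37 (without Delta9 replicate 3), and it was 0.11 and 0.12 without Delta9 replicates 1 and 2. Pgam1, phosphoglycerate mutase, read 9.82, 9.79 and 9.17 in Delta9 and 8.79, 9.33 and 9.24 in WT. Its Delta9 replicates 1 and 2 were above every WT array, while replicate 3 lay between WT replicates 1 and 3. The difference was 0.47 (SE 0.22, adjusted p 0.505), or 1.39-fold.

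Tpi1, triosephosphate isomerase, which interconverts the 2 trioses, showed the same arrangement. Its signal was 9.84, 9.93 and 9.23 in Delta9 against 9.01, 9.60 and 9.34 in WT, a difference of 0.35 (SE 0.23, adjusted p 0.625). Its other 2 probe sets differed by 0.27 and 0.40. Pgk1, phosphoglycerate kinase, the first ATP-yielding step, read 10.54, 10.53 and 9.70 in Delta9 and 9.62, 10.23 and 10.15 in WT. As in Pgam1 and Tpi1, Delta9 replicate 3 fell below WT replicates 2 and 3. The difference of Pgk1 was 0.25 (SE 0.27), within the spread of either group.

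Hk2, the inducible hexokinase that traps glucose in the cell, had the widest positive difference of the 30 members. It read 6.99 and 7.07 in Delta9 replicates 1 and 2 but 5.85 in replicate 3, with WT at 5.96, 6.15 and 5.95. So the 2 high arrays stood well above every WT array and the remaining one below all of them. The difference of 0.62 (SE 0.32, adjusted p 0.546, 95% interval -0.14 to 1.38) grew to 1.01 without Delta9 replicate 3 (adjusted p 0.0552, with 0.0552 to 0.796 over the 16 alternatives). Hk1, the constitutive hexokinase, differed by -0.17 (SE 0.15), and its dimmer second probe set by 0.20 (SE 0.27).

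The 3 phosphofructokinase subunits, whose tetramer catalyses the committed step, did not share a direction. Pfkl, the liver-type subunit, differed by 0.17 (SE 0.29), Pfkp, the platelet type, by 0.00 (SE 0.25) and Pfkm, the muscle type, by -0.23 (SE 0.17). Of Pfkl's other probe sets, a dim one differed by -0.40 and a brighter one by 0.24. Aldoc, an aldolase best known from brain, was the enzyme whose groups did not overlap: 5.15, 5.04 and 5.28 in Delta9 against 4.96, 4.98 and 4.37 in WT, with a difference of 0.39 (SE 0.20, adjusted p 0.534). Aldoa, the main aldolase of fibroblasts and muscle, differed by 0.18 (SE 0.21), and its 4 further probe sets by 0.10 to 0.21.

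The last steps had smaller differences than Pgam1 and Tpi1. Pkm, pyruvate kinase, read 9.86, 9.96 and 9.49 in Delta9 and 9.19, 9.72 and 9.68 in WT, a difference of 0.24 (SE 0.19). Ldha, which makes lactate, read 10.32, 10.23 and 9.69 against 9.76, 10.09 and 9.93, a difference of 0.15 (SE 0.19). The groups overlapped in both genes. Delta9 replicate 3 lay between WT replicates 1 and 3 in Pkm, but below every WT array in Ldha. Eno2, the neuronal enolase, was dim and differed by 0.30 (SE 0.18). Gapdh is no member, but its 3' probe set among the array's controls, singled out after its values were seen, read 12.37, 12.40 and 11.81 in Delta9 and 11.69, 12.13 and 11.94 in WT, with a mean difference of 0.27.

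**Figure D2:**
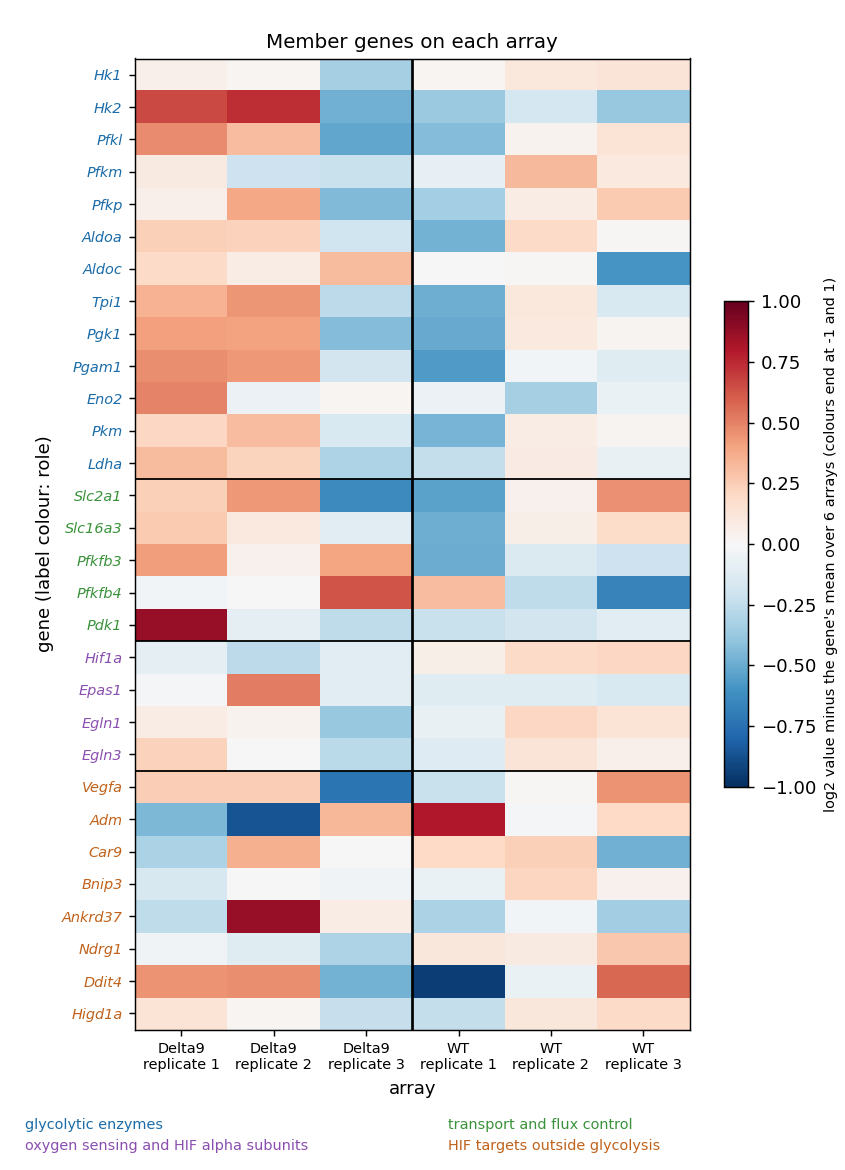
Each row is a member gene and each column an array; colour gives the log2 value minus the gene's mean over the 6 arrays, and label colour gives the role. Most glycolytic enzymes are high on Delta9 replicates 1 and 2 and low on Delta9 replicate 3 and WT replicate 1, whereas Adm and Pfkfb4 run the other way on the last 2.

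The enzymes also varied together within each genotype. Delta9 replicate 3 was the lowest Delta9 array for 11 of 13 enzymes and WT replicate 1 the lowest WT array for 10 of 13, against 43.1% and 45.0% of all genes. Both arrays lay below the other 4 for 8 of the 13 (Pfkl, Pfkp, Aldoa, Tpi1, Pgk1, Pgam1, Pkm and Ldha), and for 16 of the 30 members, against 19.3% of all genes. The same held for 6 of 12 fibroblast markers, 3 of 7 endothelial markers and 0 of 18 macrophage markers, so it was not particular to the enzymes. Delta9 replicate 3 and WT replicate 1 were taken as a pair because their spike-in signal was the lowest. Averaged over the genotypes, the enzymes' median was 0.50 log2 higher on the other 4 arrays, against 0.04 over all genes, 0.49 for the endothelial markers and 0.21 for the fibroblast markers. The part of spike-in signal or RNA amount in this was not tested.

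With this split as a block, the standard errors of several enzymes were smaller; the differences are the same by construction, since each part holds as many Delta9 as WT arrays. Pgam1 then had an SE of 0.08 and an adjusted p of 0.0590, its lowest over the 16 alternatives, which reached 0.748. At an unadjusted p under 0.05, 5 glycolytic enzymes and 7 members were higher and 3 members lower, against 9.01% of all genes higher and 9.04% lower in that fit. After adjustment 0 members passed, while 47 genes passed as higher and 102 as lower over the whole table. Within the 4 arrays of higher signal the enzymes' median difference was 0.30, with 11 of 13 higher, and between Delta9 replicate 3 and WT replicate 1 it was 0.07, with 7 of 13 higher. Pgam1 differed by 0.52 and 0.38 in these parts, Tpi1 by 0.42 and 0.23, and Hk2 by 0.98 and -0.11. On the 4 arrays, the 3' minus 5' difference of Gapdh control probe sets, a measure of RNA integrity, was 0.25 and 0.23 for Delta9 against 0.49 and 0.51 for WT, so genotype and this measure cannot be told apart there; on the remaining pair it was 0.57 on both.

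**Figure D3:**
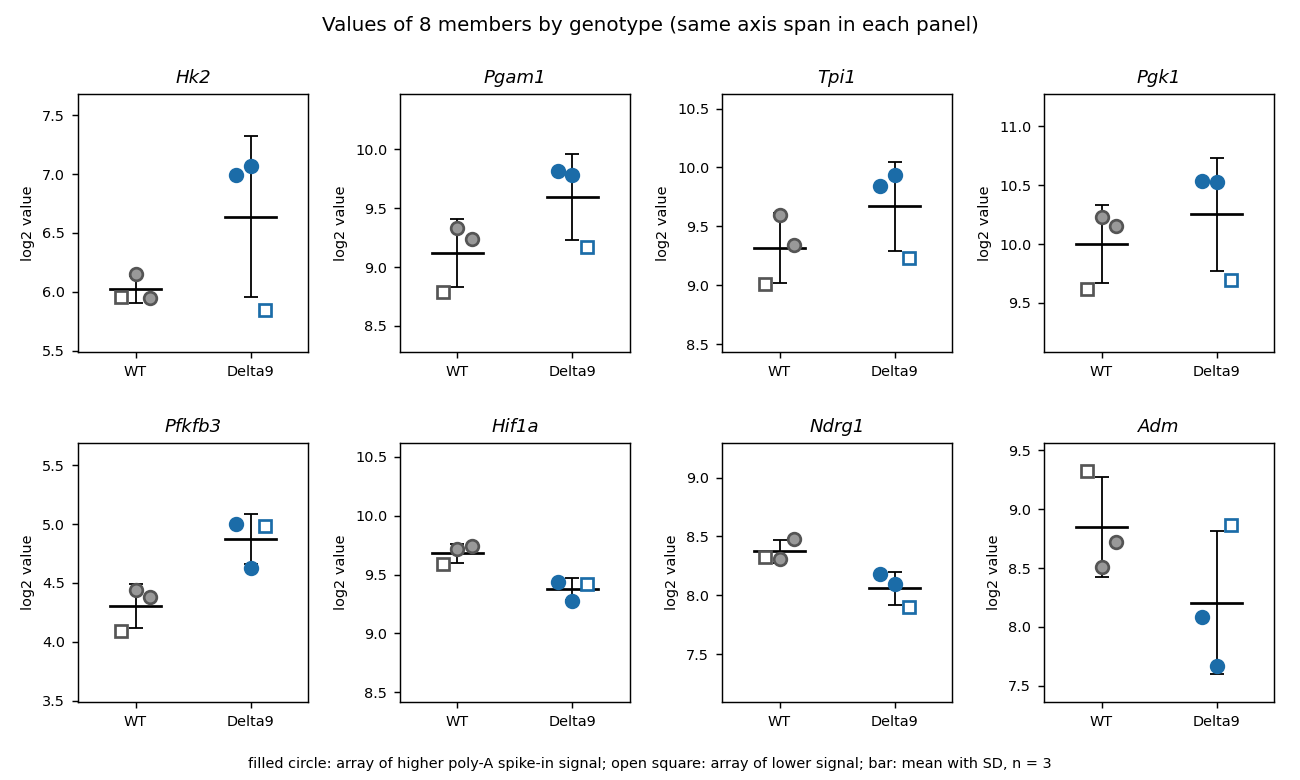
Log2 values of 8 members on each array, WT against Delta9, with the mean and SD of 3 arrays as bars; open squares mark Delta9 replicate 3 and WT replicate 1. In Hk2, Pgam1, Tpi1 and Pgk1 the open square is the lowest Delta9 value, while in Pfkfb3, Hif1a and Ndrg1 the genotypes do not overlap.

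Genes of transport and flux control all had higher values in Delta9, 5 of 5, with a median of 0.35, and none passed. Without Delta9 replicate 1 the median was 0.070, and Slc2a1 and Pdk1 were below 0. Pfkfb3 makes fructose 2,6-bisphosphate, the main activator of phosphofructokinase. It read 5.0, 4.63 and 4.98 in Delta9 against 4.09, 4.44 and 4.38 in WT, so every Delta9 array was above every WT array. The difference was 0.56 (SE 0.17, 1.48-fold, adjusted p 0.322, 95% interval 0.17 to 0.96), and the adjusted p ran from 0.154 to 0.665 over the alternatives. The gene's level lay at the 47.9th percentile, just below the median gene. A dimmer second probe set differed by 0.10 (SE 0.18). Unlike most of the enzymes, Pfkfb3 did not follow the spike-in split in Delta9, where replicate 3 was close to replicate 1.

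Pfkfb4, a related bifunctional enzyme, read 5.74, 5.76 and 6.39 in Delta9 and 6.07, 5.51 and 5.10 in WT, highest on the 2 arrays where most enzymes were lowest. Its difference was 0.41 (SE 0.29). Pdk1, the kinase that keeps pyruvate out of mitochondria, was high on 1 array only, at 6.62 in Delta9 replicate 1 against 5.66 and 5.50 in the other Delta9 and 5.53 to 5.64 in WT. Its probe sets disagreed, with a difference of 0.35 for the one used, 0.71 for a dimmer one and -0.35 for another. Slc2a1, the basal glucose transporter GLUT1, differed by 0.02 (SE 0.35), and its 2 other probe sets by 0.03 and 0.01. Slc16a3, the lactate exporter MCT4, differed by 0.16 (SE 0.21).

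In the oxygen-sensing group, the 2 alpha subunits had opposite signs and neither passed. Hif1a read 9.44, 9.27 and 9.42 in Delta9 and 9.59, 9.72 and 9.74 in WT, lower on every Delta9 array. The difference of -0.31 (SE 0.11, 1.24-fold lower, adjusted p 0.417, 95% interval -0.57 to -0.04) was matched by -0.33 on its second-brightest probe set, while a dim one differed by 0.20. Epas1, the alpha subunit also called HIF-2 alpha, read 7.88, 8.41 and 7.80 in Delta9 and 7.78, 7.77 and 7.74 in WT. The groups did not overlap, but Delta9 replicate 3 lay just above the highest WT array, and the difference was 0.26 (SE 0.18, adjusted p 0.650). Egln1, the main HIF prolyl hydroxylase, differed by -0.18 (SE 0.17), with 0.22 on its other probe set. Egln3, a hydroxylase that is itself induced by HIF, was dim on all arrays and differed by -0.03 (SE 0.15, 95% interval -0.38 to 0.32).

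The HIF targets outside glycolysis did not share the enzymes' direction. Of 8, 3 had higher and 5 lower values in Delta9, with a median of -0.09, and without Delta9 replicate 3 the median was 0.04. Adm, the vasodilator peptide adrenomedullin, had the most negative difference of the members. It read 8.08, 7.67 and 8.86 in Delta9 against 9.33, 8.51 and 8.72 in WT, so Delta9 replicate 3 overlapped WT. The difference was -0.65 (SE 0.34, 1.57-fold lower, adjusted p 0.544), and its second probe set differed by -0.49 (SE 0.44). Adm differed by -0.74 among the 4 arrays with more spike-in signal and by -0.46 between the remaining 2; with the split as a block its SE was 0.14 and its adjusted p 0.0866, the lowest of a range up to 0.801.

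Ndrg1, a growth-arrest and stress protein, read 8.18, 8.09 and 7.90 in Delta9 and 8.33, 8.31 and 8.48 in WT. Each Delta9 array was below each WT array, by a difference of -0.31 (SE 0.13, adjusted p 0.470). Of its 4 other probe sets, 3 differed by -0.23 to -0.39 and the dimmest by 0.16. Ankrd37, a small ankyrin protein strongly induced by hypoxia in many cells, stood out on 1 array, at 5.49 in Delta9 replicate 2 against 4.37 and 4.70 in the other Delta9 and 4.28 to 4.60 in WT. Its difference was 0.46 (SE 0.28).

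Vegfa, the angiogenic growth factor, read 6.42, 6.42 and 5.44 in Delta9 and 5.95, 6.19 and 6.63 in WT. The groups overlapped, with a difference of -0.16 (SE 0.31). Ddit4, an inhibitor of mTORC1 also known as REDD1, was the most variable target, at 8.02, 8.03 and 7.10 in Delta9 and 6.63, 7.51 and 8.15 in WT. Car9, the cell-surface carbonic anhydrase that is among the most HIF-specific targets, was dim, at 2.93 to 3.77 on all 6 arrays, with a difference of 0.03 (SE 0.24). Bnip3, a mitophagy receptor, and Higd1a, a small mitochondrial inner membrane protein, differed by -0.13 (SE 0.14) and -0.05 (SE 0.16).

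Probe sets of 1 gene mostly had the same sign. For the 18 members with more than 1 probe set, 27 of 34 other probe sets had the sign of the one used. Among the 24 of these above the median level of all probe sets, 20 did; the exceptions belonged to Hk1, Pdk1, Egln1 and Ndrg1.

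**Figure D4:**
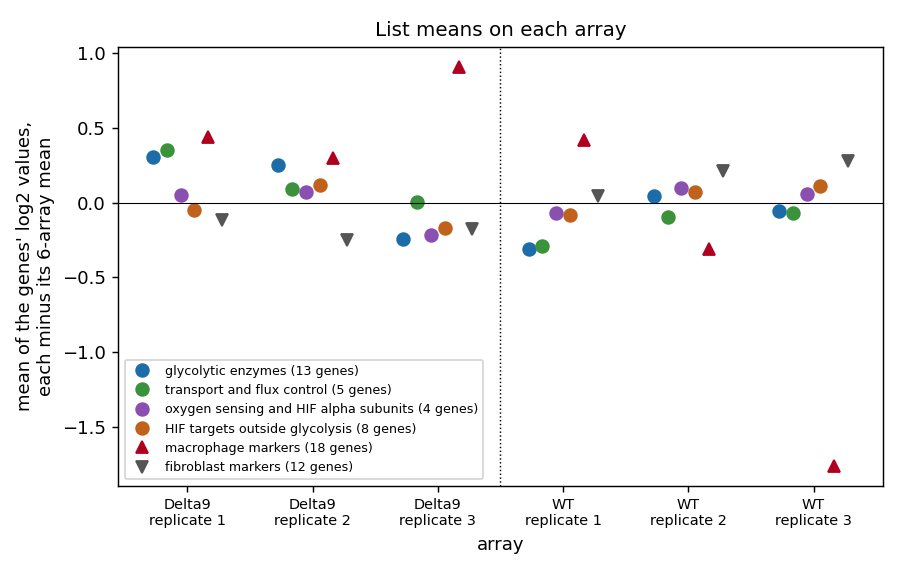
Mean over each list of the genes' log2 values, each minus its 6-array mean, on each array. The glycolytic enzymes lie at 0.31 and 0.25 on Delta9 replicates 1 and 2 and at -0.25 and -0.31 on Delta9 replicate 3 and WT replicate 1, while macrophage markers are highest on Delta9 replicate 3 (0.91) and lowest on WT replicate 3 (-1.76).

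The mean of the macrophage markers and that of the enzymes differed in the order of the arrays. The marker mean, relative to the 6 arrays, was 0.44, 0.30 and 0.91 in Delta9 and 0.42, -0.31 and -1.76 in WT. The enzymes' mean was 0.31, 0.25 and -0.25 in Delta9 and -0.31, 0.04 and -0.05 in WT. Single members departed from it: Aldoc and Pfkfb4 were highest on Delta9 replicate 3 and lowest on WT replicate 3, as the macrophage mean was. Macrophages express glycolytic enzymes too, and their part in the enzymes' values was not tested. Fibroblast markers had lower values in Delta9 for 12 of 12 genes (median -0.25). Hk3, a hexokinase typical of myeloid cells that is no member and was singled out after its values were seen, read 6.99, 7.23 and 8.66 in Delta9 and 6.97, 6.61 and 5.66 in WT, and like the macrophage markers it was highest on Delta9 replicate 3 and lowest on WT replicate 3.

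Lists of other genes of the 2 pathways gave no call either. Of 46 other glycolysis and carbon branch genes, 0 passed over all genes by limma. An unadjusted p under 0.05 was reached by 4 as higher and 2 as lower, and over all genes by 4.54% and 6.06%. Of the 46, 21 had higher and 25 lower values, with a median of -0.04. Of 54 other HIF pathway genes, 0 passed, with 4 higher and 5 lower at that p, 31 higher and 23 lower values, and a median of 0.04. The groups did not overlap for 19.6% and 18.5% of them, near the 17.3% of all genes. Among HIF pathway genes of lowest p without overlap, Ppp1r3c, a subunit that targets a phosphatase to glycogen, read 3.63, 3.49 and 4.23 in Delta9 against 5.55, 4.94 and 5.54 in WT, a difference of -1.56 (SE 0.25, adjusted p 0.123). Both Ndufa4l2, a HIF-induced mitochondrial protein, with -0.94 (SE 0.19), and Vldlr, a lipoprotein receptor, with -0.995 (SE 0.28), had lower values as well. Cxcl12, a chemokine of stromal cells, differed by -0.89 (SE 0.20), and Hmox1, the haem-degrading enzyme that is also induced by oxidative stress, by 0.81 (SE 0.18). These known targets thus had differences of both signs.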

How the data were processed

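The table deposited by the authors holds log2 summaries of probe sets from 6 Affymetrix arrays; per the labels' protocols, RNA was extracted with Trizol and labelled with biotin. How they were summarised and normalized is not given in the sources used here; base 2 was taken from their range. Of 45101 probe sets, 64 controls were left out, and 34945 had 1 gene symbol in the platform's annotation. They gave 18193 genes by the highest mean; 34741 matched a RefSeq table (GRCm38.p6) by Entrez identifier.

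Delta9 was compared with WT in limma 3.58.1 under R 4.3.3 (lmFit and eBayes with a variance trend), adjusted by Benjamini-Hochberg over all genes, threshold 0.05, with no filter. The model was tested on simulated data. Lists are described by counts and medians. The members and lists were chosen with earlier results of these data known. All members are named. Of other pathway genes, up to 8 of lowest p whose groups do not overlap are named, unless any passed. Hk3, Pdk4, Pdp1, Pgd, Tkt, Pgls, Rpia and Pygl fall outside this rule and were named after their values were seen. Same-numbered replicates were not treated as pairs, since their deviations from the group means correlated at -0.40, 0.17 and -0.43. With 3 arrays per group, these correlations cannot exclude a pairing. Figures used matplotlib 3.10.9.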

Additional observations from a re-analysis of the deposited data

How the results depend on the processing

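Of 30 members, 0 passed the adjusted threshold in any of 16 refits: each sample left out in turn, quantile normalization, the dimmest 40% of genes removed, the average over probe sets, no _x_at or _s_at probe sets, the variances without a trend or robust, weighted arrays, a replicate block, and the spike-in split as a block or its larger part alone. On the values as reported, a threshold of 0.10 also gave 0. An unadjusted p of 0.05 gave 3, where 10.6% of all genes reached it. At 0.10 the refits passed Pgam1 and Adm with the spike-in split as a block, and Hk2 in its larger part and without Delta9 replicate 3. The share of all genes at 0.10 is not given here. At the unadjusted p they gave 1 to 10 members. The 10 came with the spike-in split as a block, where 9.01% of all genes were higher and 9.04% lower. With the replicate block it was 1 member, where 530 of 18193 genes were higher and 818 lower. Aldoa had no value without _x_at and _s_at probe sets, and Car9 and Egln3 had none without the dimmest genes. With the replicate block, 0 of 18193 genes passed and the members' lowest adjusted p by limma was 0.665. Whether the replicate numbers pair the samples is not known here. Deviations of Delta9 replicate 3 from its group mean correlated with those of WT replicate 1 (0.59). With single samples left out, the enzymes' median of 0.24 ran from 0.070 (without WT replicate 1) to 0.37 (without Delta9 replicate 3), that of the HIF targets outside glycolysis from -0.18 to 0.04, and that of transport and flux control from 0.070 (without Delta9 replicate 1) to 0.48, with 0.17 for the average over probe sets.

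Of the 30 members, 17 kept their sign in every refit and 13 did not. Quantile normalization turned Pfkp to -0.042 and Slc2a1 to -0.018. The average over probe sets turned Hk1 to 0.012 and Egln1 to 0.020. Array weights turned Vegfa to 0.10 and Car9 to -0.074, and the larger part of the spike-in split turned Egln3 to 0.025 and Vegfa to 0.014. The cause was not tested. With single samples left out, differences ran over 0 for Pfkl (-0.020 to 0.48), Pfkp (-0.19 to 0.22), Aldoa (-0.011 to 0.33), Slc2a1 (-0.24 to 0.35), Slc16a3 (-0.041 to 0.30), Pdk1 (-0.00097 to 0.56), Egln3 (-0.15 to 0.10), Vegfa (-0.32 to 0.17), Car9 (-0.21 to 0.19), Ddit4 (-0.11 to 0.65) and Higd1a (-0.18 to 0.052).

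With 3 arrays per group and no detection calls, dim members such as Car9, Egln3 and Eno2 are least certain. Slc16a3, Pfkfb3 and Ankrd37 lay below the median gene too, at percentiles 44.7, 47.9 and 48.3.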

Other observations

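The pentose phosphate branch leaves glycolysis at glucose 6-phosphate and supplies NADPH and ribose. Of its 6 measured genes, 4 had higher and 2 lower values in Delta9, with a median of 0.17, and 0 passed by limma. At an unadjusted p under 0.05, 1 was higher (Taldo1), as were 4.54% of all genes. Taldo1, the transaldolase that returns sugars to glycolysis, read 9.17, 9.14 and 9.10 in Delta9 against 8.32, 8.59 and 8.40 in WT, a difference of 0.70 (SE 0.12, adjusted p 0.161) that was larger than the spread within either group. Pgd, a dehydrogenase of the oxidative arm, differed by 0.33 (SE 0.15) and Tkt, transketolase, by 0.19 (SE 0.12), whereas Pgls (-0.03, SE 0.13) and Rpia (-0.07, SE 0.17) lay near 0.

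Of 8 genes that run or control pyruvate dehydrogenase, 2 had higher and 6 lower values, with a median of -0.26. Pdk4, an inhibitory kinase induced by fasting signals, differed by -0.78 (SE 0.25, adjusted p 0.360 by limma). The 2 activating phosphatases had opposite signs. Pdp1, the brighter one, had the most negative difference of the 8, -1.03 (SE 0.47, adjusted p 0.493), with overlapping groups. Pdp2, which was dim, differed by 0.42 (SE 0.12, adjusted p 0.321). Of 5 glycogen genes, 4 had lower values, among them Ppp1r3c, which is also counted above with the other HIF pathway genes. Pygb, a glycogen phosphorylase, read 7.33, 7.63 and 7.82 in Delta9 against 8.08, 8.07 and 8.30 in WT. Its difference was -0.55 (SE 0.17, adjusted p 0.330 by limma). Pygl, also a glycogen phosphorylase, was the gene with the higher value, by 0.53 (SE 0.24), with overlapping groups.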
